A study of Mus musculus with 24 samples.

Results

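The microRNA miR-210 was followed in the mouse lung over the first 6 weeks after birth. It was chosen by its name in the array files, mmu-miR-210, and is 1 of 650 miRNA names on the array and 1 of 322 miRNAs that could be tested. MicroRNAs (miRNAs) are short RNAs that pair with messages and hold back the protein made from them. Total RNA from the whole lung of healthy C57BL/6 mice was labelled with the dye Cy3 and measured on 24 Agilent arrays of 1 colour, 1 array for each biological replicate. The groups were lungs at day 1, day 4, day 7 and day 14 after birth, with 5 arrays each, and at 6 weeks, written here as day 42, with 4 arrays. All mice were of the same strain, and the labels give no treatment and no genotype beyond the strain. The title names fetal lungs, but the labels of all samples give an age after birth, which was used.

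In many mammalian cell types miR-210 is made when oxygen is short. The hypoxia inducible factors (HIF), which are broken down while oxygen is plentiful, bind near the miR-210 gene and switch it on. Known targets of miR-210 include messages for iron-sulfur cluster assembly and for parts of the respiratory chain in mitochondria, as well as the ephrin ligand EFNA3 in endothelium. At birth the lung changes from a fluid-filled organ with little blood flow and low oxygen to the organ of gas exchange. Oxygen itself was not measured in these mice, so the levels below are described by age alone.

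Because the level of a miRNA is read here through probes for its mature form, the mature sequence is shown first, from the RefSeq annotation of the mouse build GRCm38.p6. The array name carries no arm, and it is the older name of the 3′ arm, miR-210-3p. In the lines that give mature miRNAs here, capitals mark the seed, bases 2 to 8, with which a miRNA finds its targets. The other arm of the same hairpin, miR-210-5p, has no probe on the array.
mmu-miR-210-3p: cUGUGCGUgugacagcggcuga
mmu-miR-210-5p: aGCCACUGcccaccgcacacug

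Both arms come from 1 hairpin of 110 bases at chr7:141221384-141221493 on the minus strand. It is shown 5′ to 3′ with the measured 3′ arm, bases 66 to 87 of the hairpin, in capitals, to place the measured strand beside the unmeasured one at bases 28 to 49.
Mir210 hairpin: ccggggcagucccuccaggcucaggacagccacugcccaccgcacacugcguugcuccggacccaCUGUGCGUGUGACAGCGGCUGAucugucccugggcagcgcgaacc
No other annotated gene overlapped the hairpin, which lies between Rassf7 on the side of lower coordinates and Gm51460 and Phrf1 on the other. Of the 22 bases of the mature miRNA, 14 are G or C (63.6%), against a median of 52.2% over 1679 mature mouse entries. None of the other entries had the same bases 2 to 8, nor the same bases 2 to 7. The longest stretch that any other entry shared with miR-210-3p was 9 bases, in 1 entry (mmu-miR-7672-5p). By this annotation miR-210 has no seed relative in the mouse. The probe sequences were not used here.

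Over the 5 ages the level of miR-210 was highest at day 1 and lowest at days 14 and 42. Levels are given as log2 of the array-scaled signal, so that a difference of 1 is a doubling. At day 1 the 5 lungs read 8.98, 9.19, 8.76, 8.71 and 8.89. At day 4 they read 8.59, 8.41, 8.47, 8.15 and 8.23, and at day 7 7.92, 7.94, 7.91, 8.01 and 8.13. At day 14 the values were 7.54, 7.59, 7.53, 7.32 and 7.83, and at day 42 7.80, 7.39, 7.33 and 7.58. Day 1, day 4, day 7 and the pair of day 14 and day 42 thus form 4 steps without overlap in these scaled levels. The lowest day 1 lung lay above the highest day 4 lung, the lowest day 4 lung above the highest day 7 lung, and the lowest day 7 lung above the highest lung at day 14 or day 42. How many other miRNAs separate the ages in this way was not counted. In the authors' deposited table days 1 and 4 overlapped, and so did days 7 and 14.

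The mean was 8.91 ± 0.19 in day 1 lungs, 8.37 ± 0.18 in day 4 lungs, 7.98 ± 0.089 in day 7 lungs and 7.56 ± 0.18 in day 14 lungs (SD, n = 5 each). At day 42 it was 7.52 ± 0.21 (SD, n = 4). On the linear scale the mean scaled signal was 484, 332, 253, 190 and 186 in the order of the ages. The spread between lungs at day 7 was the smallest of the 5 ages, and at the other ages the SD lay between 0.18 and 0.21. In a limma F-test over the 24 arrays miR-210 changed with age (F = 40.7, adjusted p = 4.20e-09), as did 65.5% of the 322 tested miRNAs. In the scaling used here its range between age means was 1.38 on the log2 scale (2.61-fold), and it ranked number 50 of 322 by p in that test. In whole lung, fewer cells that make miR-210 and less miR-210 per cell cannot be told apart.

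**Figure D1:**
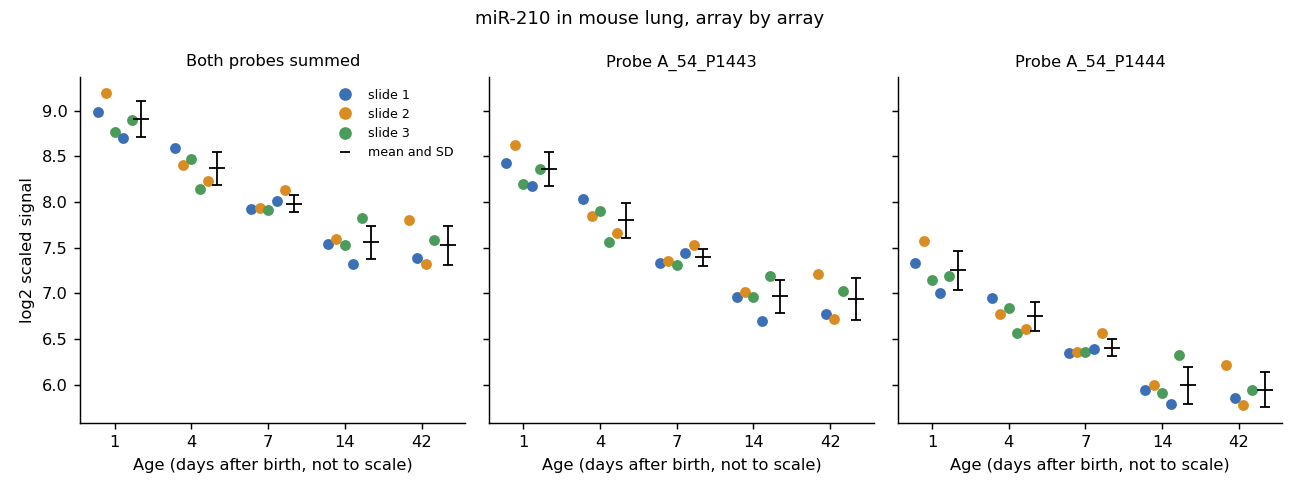
Level of miR-210 on each of the 24 arrays (log2 scaled signal) against age, for both probes summed and for each probe; points are arrays coloured by slide, and bars are means with the SD. In the summed values day 1 holds the highest points (8.71 to 9.19), and days 14 and 42 overlap at 7.32 to 7.83.

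The comparison of each later age with day 1 asks how far the adult and the growing lung stand from the newborn lung. At day 4 miR-210 averaged 8.37, against 8.91 at day 1, a difference of -0.54 ± 0.13 (SE) on the log2 scale or 1.45-fold lower (limma, adjusted p = 0.0240). Only 1.55% of the tested miRNAs were called in this comparison (5 of 322 at an adjusted p under 0.05). The call was lost with no scaling (-0.17), with normexp background correction (-0.71), with only the arrays of both ages (-0.54, adjusted p = 0.123) and without any 1 of 6 single arrays (adjusted p of up to 0.108). At day 7 it averaged 7.98 and was lower than at day 1 by a log2 difference of -0.93 ± 0.13, or 1.90-fold (adjusted p = 3.68e-05, with 15.8% of all miRNAs called). At day 14 it was 2.55-fold lower than at day 1 (-1.35 ± 0.13, adjusted p = 6.92e-09, 53.7% called) and at day 42 2.61-fold lower (-1.38 ± 0.13, adjusted p = 3.91e-09, 61.8% called). Both falls were the largest of the 6 scalings tried. At day 42 the others gave -1.02 (median scaling), -0.86 (deposited table), -0.79 (quantile normalization), -0.72 (percentile over all names) and -0.38 (no scaling). In the day 42 comparison 42.9% of all tested miRNAs fell and 18.9% rose, so a fall of miR-210 is 1 of many at that age. At day 4 it was 1 of 3 falls.

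Ranked by p among the 322 miRNAs, miR-210 stood in place 4 for day 4 against day 1 and in place 2 for day 7 against day 1. It stood in place 15 for day 14 and in place 49 for day 42. In the scaled levels all lungs of each later age lay below all lungs of day 1, and other miRNAs without overlap were not counted. By rank and in the deposited table days 1 and 4 overlapped. Where groups do not overlap the exact test gives its smallest p, so it restates the lack of overlap. An exact permutation test of the level alone gave a two-sided p = 0.00794 for day 4, day 7 and day 14 against day 1, which is the smallest that 5 arrays against 5 allow. For day 42 against day 1 the exact test gave p = 0.0159, the smallest that 4 arrays against 5 allow. These p-values measure the spread between biological replicates as labelled.

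**Figure D2:**
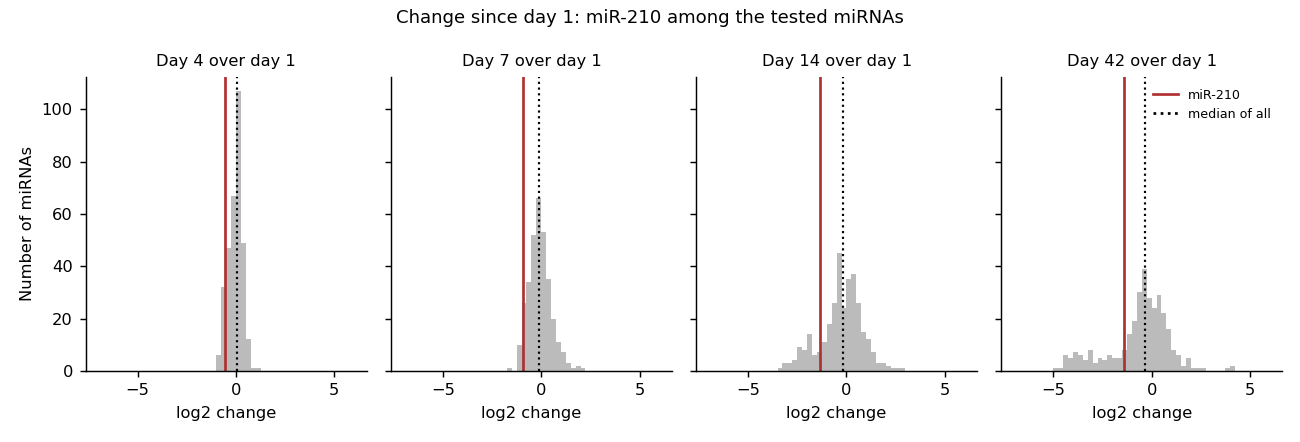
Number of tested miRNAs (vertical axis) by their fitted log2 change against day 1, at days 4, 7, 14 and 42; the red line marks miR-210 and the dotted line the median of the 322 miRNAs. The red line lies left of the dotted line in each panel, at -0.54, -0.93, -1.35 and -1.38, while the grey distribution widens with age.

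Step by step between neighbouring ages, the level fell in the first step and in the third, and both calls depended on the processing. From day 4 the next age, day 7, differed by -0.39 ± 0.13 on the log2 scale (7.98 at day 7, against 8.37 at day 4), but this did not pass the adjustment over all miRNAs. Its adjusted p was 0.682, the unadjusted p was 0.00576 and the 95% interval of the difference ran from -0.65 to -0.12. In this step 0.311% of the tested miRNAs were called (1 of 322), and miR-210 stood in place 2 by p. The lungs of the 2 ages did not overlap, and the exact permutation test of miR-210 alone gave p = 0.00794 (two-sided), or 0.0106 after Benjamini-Hochberg adjustment over the 4 steps. This p is the smallest possible and restates the lack of overlap, and its adjustment does not cover the 322 tested miRNAs. On probe A_54_P1444 alone the 2 ages met, with 6.57 on the highest day 7 array and 6.56 on the lowest day 4 array.

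At day 14 the level was lower than at day 7, with a log2 difference of -0.42 ± 0.13 (7.56 at day 14, against 7.98 at day 7; adjusted p = 0.0113, 31.4% called). The value was -0.060 with the percentile taken over all names and -0.16 in the deposited table, and neither was called. At day 42 the mean was 7.52, against 7.56 at day 14, a difference of -0.036 ± 0.13 (adjusted p = 0.881, 32.6% called). The 95% interval of that difference ran from -0.31 to 0.24, the lungs of both ages overlapped, and the exact permutation p was 0.841 (two-sided). In the scaled levels used here, days 14 and 42 were therefore the only neighbours whose lungs overlapped. By rank and in the deposited table days 14 and 42 did not overlap, with day 42 the higher, whereas days 1 and 4 did.

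The remaining pairs skip an age. Day 14 was lower than day 4, at -0.81 ± 0.13 (adjusted p = 1.47e-05, 39.4% called), and day 42 was lower than day 4, at -0.84 ± 0.13 (adjusted p = 9.89e-06, 59.6% called). Both calls were lost with no scaling (-0.085 for day 14 and -0.21 for day 42 against day 4) and with normexp background correction (-0.29 and -0.74). That of day 42 was also lost with the percentile taken over all names (-0.22, adjusted p = 0.0813). Day 42 was lower than day 7, at -0.46 ± 0.13 (adjusted p = 0.00561, 57.8% called). This last difference had the opposite sign where the 75th percentile was taken over all names (0.18), after quantile normalization (0.13) and in the deposited table (0.11). It was not called with median scaling (-0.063), no scaling (-0.17) or normexp (-0.40).

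The 2 probes for miR-210, A_54_P1443 and A_54_P1444, have 10 spots each on every array, and over the 24 arrays all 240 spots of each were well above background with 0 saturated. The first probe was the brighter. Its processed signal before scaling was 100.2 to 337 intensity units, against 47.2 to 163 for A_54_P1444, where the local background of both ran from 30.5 to 43 units. Within an array the spots of A_54_P1443 varied by a median of 5.16% (coefficient of variation) and those of A_54_P1444 by 6.90%. The scanner software marked 15 of 240 spots of the first probe and 8 of 240 of the second as outliers, and these were left out.

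Both probes gave the same order of ages. For A_54_P1443 the log2 scaled signal ran from 8.18 to 8.63 on day 1 arrays (median 8.36), from 7.56 to 8.03 at day 4 (median 7.85) and from 7.31 to 7.53 at day 7 (median 7.35). On the same probe it was 6.70 to 7.19 at day 14 (median 6.96) and 6.72 to 7.21 at day 42 (median 6.90). Probe A_54_P1444 ran from 7.00 to 7.58 on day 1 arrays (median 7.19), from 6.56 to 6.94 at day 4 (median 6.78), from 6.35 to 6.57 at day 7 (median 6.36), from 5.79 to 6.33 at day 14 (median 5.94) and from 5.78 to 6.22 at day 42 (median 5.90). On A_54_P1443 days 1, 4, 7 and 14 did not overlap. On A_54_P1444 the highest day 7 array (6.57) reached the lowest day 4 array (6.56), and the other neighbours up to day 14 did not overlap. Days 14 and 42 overlapped on both probes. Fitted alone, A_54_P1443 was lower at day 42 than at day 1 (-1.42 on the log2 scale, adjusted p = 2.85e-09), and so was A_54_P1444 (-1.30, adjusted p = 1.29e-08).

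As a description, the values of the probes had a Pearson correlation of 0.994 over the 24 arrays, on which they share array, RNA and scaling. The brighter probe exceeded the other by 1.11 ± 0.063 on the log2 scale in day 1 lungs, 1.05 ± 0.035 in day 4 lungs, 0.99 ± 0.040 in day 7 lungs, 0.97 ± 0.080 in day 14 lungs (SD, n = 5 each) and 0.99 ± 0.073 in day 42 lungs (SD, n = 4). The dimmer probe thus showed the smaller difference between day 42 and day 1.

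Another view needs no scaling factor. On each array miR-210 was ranked among the 228 miRNAs detected on all arrays, as the percentage of them at or below it. It stood at 49.8% ± 2.7 in day 1 lungs, 43.6% ± 2.0 in day 4 lungs, 36.6% ± 1.2 in day 7 lungs, 33.3% ± 1.5 in day 14 lungs (SD, n = 5 each) and 37.3% ± 1.3 in day 42 lungs (SD, n = 4). By rank, miR-210 was thus in the middle of these miRNAs at day 1 and in their lower part later, lowest at day 14. Day 1 and day 4 overlapped by rank, with the lowest day 1 lung at 45.2% and the highest day 4 lung at 46.5%. By rank the 4 day 42 lungs, at up to 39.0%, all lay above the 5 day 14 lungs, of which the highest was at 34.6%, whereas by scaled level the ages overlapped.

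The arrays grew brighter with age, which bears on every level. The 75th percentile of the 228 miRNAs before scaling averaged 1539, 1957, 2418, 3239 and 3104 intensity units at days 1, 4, 7, 14 and 42. The unscaled signal of miR-210, summed over its probes, averaged 336 ± 134 units in day 1 lungs, 282 ± 54.7 at day 4, 271 ± 16.6 at day 7 and 270 ± 81.0 at day 14 (SD, n = 5 each). In day 42 lungs it averaged 249 ± 70.6 units (SD, n = 4). Without any scaling miR-210 was not called at any age against day 1, with -0.38 at day 42 (adjusted p = 0.226), and all tested miRNAs had a median of 0.64 in that comparison. The falls given here are thus relative to the other miRNAs of the lung, and less miR-210 and more of the others cannot be told apart.

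The scaling used here put the median change of all tested miRNAs at 0.030, -0.098, -0.17 and -0.35 for days 4, 7, 14 and 42 against day 1. Set against that median, miR-210 was lower under each of the 6 scalings, no scaling and the authors' deposited table among them. Of these, 4 shift all miRNAs of an array alike, so that their agreement after subtracting the median follows from how they are made. Quantile normalization and the deposited table do not. In the deposited table some arrays share exactly the same miR-210 value (7.22371 at day 42 replicates 2, 3 and 4). That table may thus not be a check separate from quantile normalization. The relative value ran from -0.57 to -0.54 at day 4, from -1.02 to -0.82 at day 7, from -1.29 to -1.15 at day 14 and from -1.17 to -0.98 at day 42. For day 14 against day 7 it ran from -0.37 to -0.22, and for day 42 against day 14 from 0.13 to 0.23. Relative to the other miRNAs, miR-210 thus stood lowest at day 14 under all 6 scalings. With normexp background correction, which starts from the unsubtracted spot signal, the relative values were closer to 0, at -0.094, -0.23, -0.44 and -0.26 for days 4, 7, 14 and 42 against day 1. In that setting day 1 replicate 3 and day 14 replicate 3 read far above the other lungs of their ages.

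**Figure D3:**
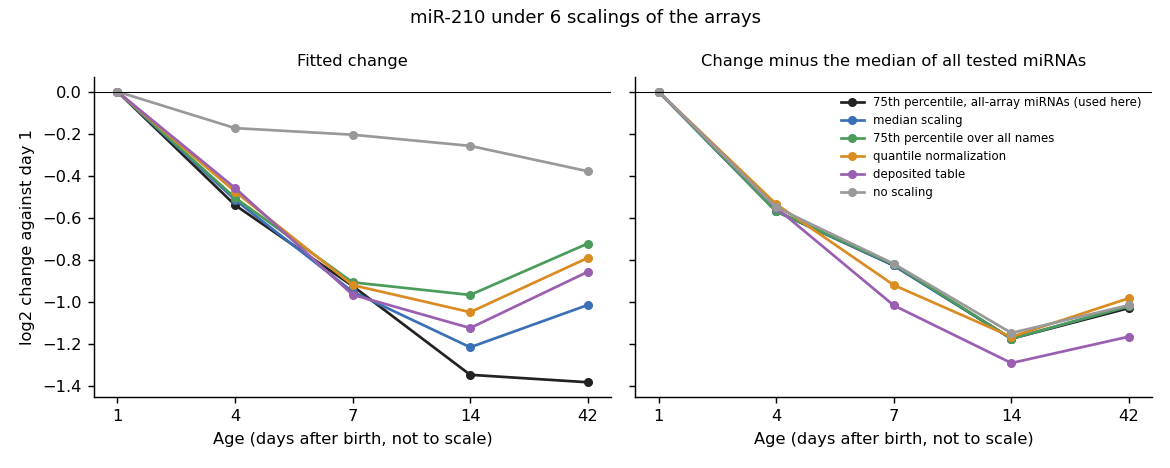
Change of miR-210 against day 1 (log2, vertical axis) by age under 6 scalings of the arrays, as fitted (left) and after subtracting the median change of all tested miRNAs (right). On the left the day 42 values run from -1.38 to -0.38; on the right they lie between -1.17 and -0.98.

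In the authors' deposited table, whose columns share a median of 2.41 and whose scaling is not stated, miR-210 averaged 8.11, 7.65, 7.14, 6.99 and 7.25 at days 1, 4, 7, 14 and 42, read as log2 values. There day 4 (7.47 to 7.93) overlapped day 1 (7.65 to 8.33), and day 14 overlapped day 7. The day 42 lungs (7.22 to 7.34) lay above the day 14 lungs (6.86 to 7.07) and also above the day 7 lungs (7.04 to 7.19). The lowest age was thus day 14 in that table and by rank, and day 42 in the scaled levels, by a difference within the spread between lungs.

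The fall against day 1 was also seen within each of the 3 slides of 8 arrays, all of which hold every age. For day 42 against day 1 the difference of means was -1.46 on slide 1, -1.63 on slide 2 and -1.24 on slide 3. For day 4 against day 1 it was -0.26, -0.88 and -0.52 on slides 1, 2 and 3, with 1 or 2 arrays of each age on a slide. The 6 arrays without which day 4 against day 1 lost its call were day 1 replicates 1, 2 and 5 and day 4 replicates 2, 4 and 5. Over the fits that left out 1 array the value lay between -0.60 and -0.47. Only leaving out 1 of the 5 day 1 or 5 day 4 arrays can change this value, and the call was lost in 6 of those fits.

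One lung stood apart in other miRNAs. Day 1 replicate 2 had a summed level of 6 striated muscle miRNAs (miR-1, miR-133a, miR-133b, miR-206, miR-208a and miR-208b) of 15.19, where the lowest of the 5 day 1 lungs was at 8.54 and their median at 9.73. The same lung had the highest miR-210 level of all 24, at 9.19. Without it miR-210 was lower at day 42 than at day 1 (-1.31, adjusted p = 2.06e-08), and day 4 against day 1 stood at -0.47 (adjusted p = 0.0947). The part of muscle tissue in its level was not tested further.

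Other markers show what the lungs held. The 2 endothelial miRNAs (the arms of miR-126) and all of the 8 epithelial, 4 mesenchymal and 5 blood cell miRNAs were detected on all arrays. The endothelial sum had a median of 15.99 at day 42, against 15.32 at day 1, on the log2 scale, and its ranges did not overlap (15.93 to 16.35 at day 42, against 14.96 to 15.59 at day 1). The mesenchymal sum (miR-143, miR-145, miR-199a-3p and miR-214) stood at 13.42 to 13.73 at day 42, against 13.98 to 14.38 at day 1. The epithelial sum stood at 14.28 to 14.48 at day 42, against 13.80 to 14.45 at day 1. The blood cell sum stood at 15.45 to 16.54 at day 42, against 14.72 to 16.08 at day 1. Among miRNAs of other organs, miR-124 of brain was detected on no array, and miR-122 of liver was at or near the floor on most, with 9.62 on 1 day 7 array. The other 2 brain miRNAs (miR-9 and miR-128) were detected, 1 of them on all arrays, with sums of 7.01 to 7.91 for the list, and both islet miRNAs were detected on all arrays, with sums of 7.67 to 8.96. In the scaling used here the endothelial and mesenchymal marker sums thus moved with age, in opposite directions. The sums were not taken under the other scalings, and the part of the cell makeup in the level of miR-210 was not tested.

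At day 4 few miRNAs had moved, so those called beside miR-210 are all named. The pair miR-195 and miR-497, which come from 1 cluster and slow the cell cycle, rose. The value of miR-195 at day 4 was higher than at day 1 by 0.71 (adjusted p = 0.00196) and that of miR-497 by 0.68 (adjusted p = 0.00196). Both were called under 37 of 39 alternatives, with values of 0.58 to 1.07 and 0.53 to 1.04. Of the 39, 24 each left out 1 array, most often of an age not compared, which leaves the fitted difference as it was. Such counts, here and below, are thus not counts of separate checks. The falls beside miR-210 were miR-675-3p, which is made from the imprinted growth-linked RNA H19, with -0.91 (adjusted p = 0.000680), and miR-301b, of the miR-130 family, with -0.75 (adjusted p = 0.0436). The call of miR-301b held under 12 of 39 alternatives (-0.96 to -0.39) and that of miR-675-3p under 34 (-1.05 to -0.54). In the next step, day 7 against day 4, miR-675-3p was the 1 miRNA called (-0.77, adjusted p = 0.00694).

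Among the 227 other miRNAs detected on all arrays, those with the course most like that of miR-210 were chosen by Pearson's r over the log2 values of the 24 arrays. These values are a description, since arrays share age and brightness, and the median r over all 227 was 0.25. The most alike were miR-130b (r = 0.93), miR-362-5p (0.92), miR-532-5p (0.90), miR-127 (0.87) and miR-204 (0.86). Over the 5 age means their r with miR-210 lay between 0.88 and 0.96. In the deposited table the r of miR-362-5p was -0.24 and that of miR-532-5p 0.56, while those of miR-130b, miR-127 and miR-204 were 0.84, 0.71 and 0.69. The likeness of miR-362-5p thus depended on the scaling.

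Their mature sequences, where the RefSeq table holds them, are shown to compare their seeds with UGUGCGU, the seed of miR-210. None of the 4 shares it. Capitals again mark bases 2 to 8.
mmu-miR-130b-3p: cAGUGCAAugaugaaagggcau
mmu-miR-362-5p: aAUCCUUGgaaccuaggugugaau
mmu-miR-127-3p: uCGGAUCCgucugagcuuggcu
mmu-miR-204-5p: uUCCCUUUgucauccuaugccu

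The sizes of their changes differed from that of miR-210. At day 42 against day 1 miR-127, from the imprinted Dlk1-Dio3 region, stood at -4.12 on the log2 scale, miR-130b at -2.30 and miR-204 at -2.13, where miR-210 stood at -1.38. The 2 miRNAs of the X-linked cluster that holds miR-362 and miR-532 stood at -0.74 (miR-362-5p) and -0.64 (miR-532-5p), but these changed sign with the scaling, up to 0.44 and 0.37. Those of miR-127, miR-130b and miR-204 were negative and called under all 39 alternatives. At day 42 against day 14 the means of miR-127, miR-130b and miR-204 were lower by more than that of miR-210, a difference that was not tested.

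The courses most opposite to miR-210 were those of miR-195 (r = -0.87), miR-497 (-0.83) and miR-338-3p (-0.82), with -0.80, -0.91 and -0.75 in the deposited table. At day 42 they were higher than at day 1 by 1.44, 0.99 and 1.86, and positive under all 39 alternatives. The pair miR-195 and miR-497 shares a seed, as the sequences show.
mmu-miR-195a-5p: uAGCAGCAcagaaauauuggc
mmu-miR-497a-5p: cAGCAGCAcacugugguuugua
mmu-miR-338-3p: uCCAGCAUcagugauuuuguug

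**Figure D4:**
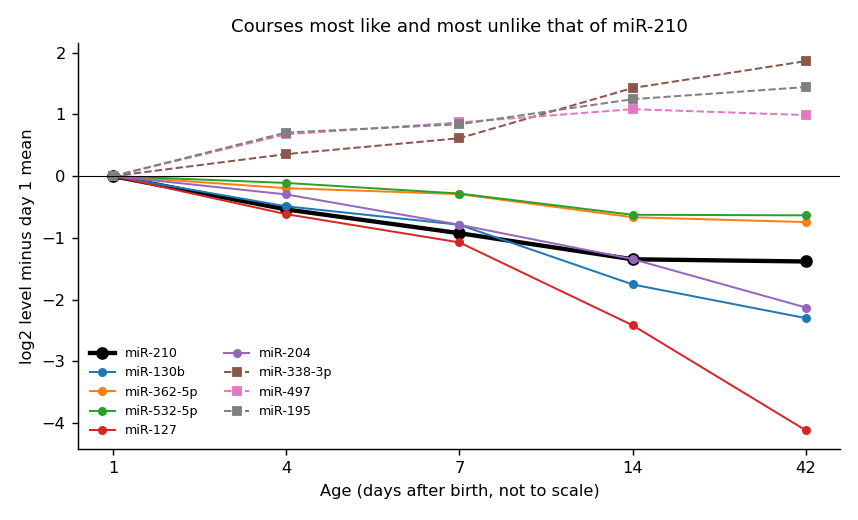
Mean log2 level at each age minus the day 1 mean for miR-210 (black), the 5 miRNAs with the highest and the 3 with the lowest r with it over the 24 arrays (dashed, squares). At day 42 the lines run from -4.12 for miR-127 to 1.86 for miR-338-3p, with miR-210 at -1.38; the values of miR-362-5p and miR-532-5p change sign with the scaling.

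As miR-210 is known as a hypoxia miRNA, it was set in a list of 16 miRNAs, itself included, that were reported to rise in cultured cells at low oxygen. All 16 were detected on all arrays, and they did not move together. At day 4 against day 1 miR-210 was the 1 member called (0 rises and 1 fall), beside 1.55% of all tested miRNAs. At day 14 against day 1 6 of the 16 rose and 3 fell, miR-210 among the falls (6 and 2 of the other 15). Of all tested miRNAs 21.1% rose and 32.6% fell. At day 42 against day 1 7 of the 16 rose and 5 fell, miR-210 among the falls (7 and 4 of the other 15). Of all tested miRNAs 18.9% rose and 42.9% fell. The median of the list at day 42 was 0.056, or 0.31 without miR-210, against -0.35 for all 322 miRNAs.

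The largest called rises at day 42 were those of miR-26b (0.88, adjusted p = 0.000320) and miR-27a (0.76, adjusted p = 0.0119); miR-27a comes from a cluster with miR-23 and miR-24. The largest falls were those of miR-322 (-1.76, adjusted p = 2.98e-08), a growth-slowing miRNA of the X chromosome, and of miR-210 itself. Counts on the list changed with the scaling. Quantile normalization gave 1 rise and 6 falls (median -0.085, against 0.19 for all miRNAs), and the authors' deposited values gave 6 of each (median -0.0083, against 0.31 for all). In both, which may not be separate checks, the list thus lay below the median of all, and above it in the scaling used here. No scaling gave 10 rises and 0 falls (median 1.06, against 0.64 for all). Of the 322 tested miRNAs, 214 were called in either direction after quantile normalization, 221 in the deposited values and 203 with no scaling. How these calls split into rises and falls is not given here, so the list counts by direction cannot be set against them. The call of miR-27a was lost under 4 of 39 alternatives: brightness as a covariate (0.10, adjusted p = 0.699), leaving out the 5 dimmest arrays (0.11, adjusted p = 0.545), only the arrays of both ages (0.76, adjusted p = 0.0937) and quantile normalization (0.59, adjusted p = 0.0522).

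**Figure D5:**
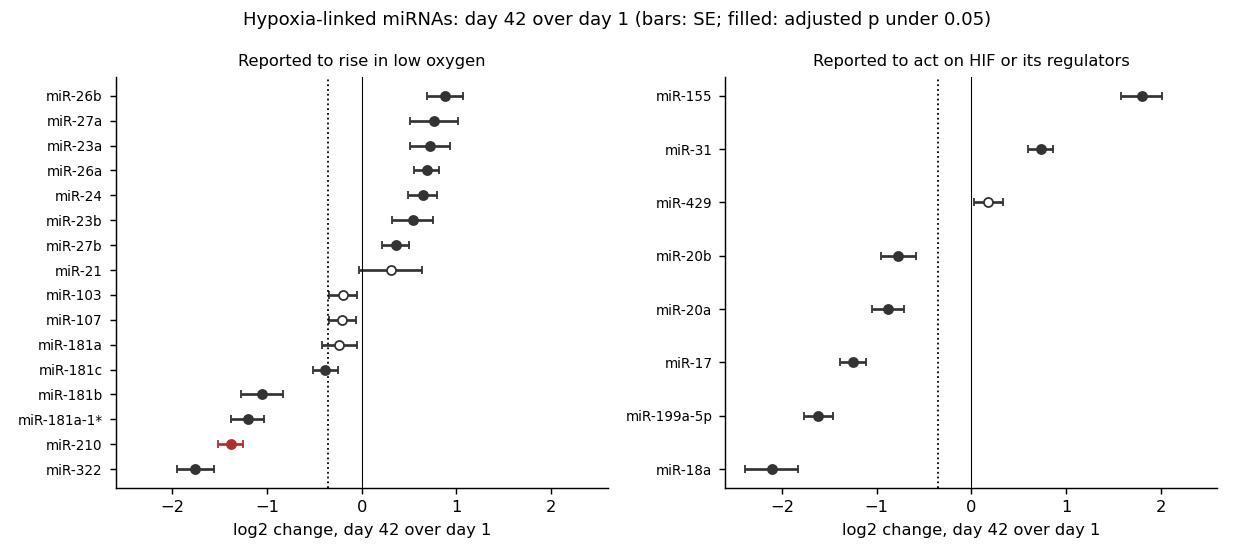
Fitted log2 change between day 42 and day 1 (day 42 over day 1, horizontal axis) of the tested members of both hypoxia-linked lists; bars are standard errors, filled points passed an adjusted p under 0.05, and the dotted line is the median of all 322 miRNAs (-0.35). On the left miR-210 (red, -1.38) is next to the lowest, above miR-322 (-1.76).

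A second list held 9 miRNAs reported to act on messages of the HIF proteins or their regulators. Of these, 8 were tested, and miR-138 was detected on 1 array. None of them was among the 5 miRNAs called at day 4 against day 1. As those were only 1.55% of all tested miRNAs, this says little about a list of 8. At day 42 against day 1 2 of the 8 rose and 5 fell (median -0.83, against -0.35 for all), beside 18.9% and 42.9% of all tested miRNAs. The rises were those of miR-155, a miRNA of immune cells, with 1.80 (adjusted p = 1.53e-07), and of miR-31 with 0.73 (adjusted p = 6.17e-05). The largest falls were those of miR-18a, of the growth-linked miR-17 cluster, with -2.11 (adjusted p = 5.94e-07), and of miR-199a-5p, a miRNA of fibroblasts, with -1.61 (adjusted p = 1.98e-09). With normexp background correction miR-155 and miR-31 were at -0.50 and -0.12, no rise was called, and the list median lay above that of all miRNAs (-0.75, against -1.19 for all). With no scaling 3 of the list rose and 0 fell (median 0.18, against 0.64 for all). Of the 322 tested miRNAs, 242 were called in either direction with normexp and 203 with no scaling. The split of these calls into rises and falls is not given here either.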

How the data were processed

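Scans were read by Agilent Feature Extraction 10.7.1.1, per the file headers, and per the labels' protocols 100 ng of total RNA was labelled. The deposited array files hold intensity values per spot, background-subtracted by the authors' software and not adjusted between arrays. The authors' deposited series table holds 672 names on a log2 scale (line slopes of 0.893 to 1.08 against the arrays' own log2 totals, correlations of at least 0.998), and its normalization is not given in the sources used here. Processed signals were averaged over the spots of a probe without outlier spots and summed over a miRNA's probes. As the scale of an array its 75th percentile over 228 miRNAs (those flagged as detected on each of the 24) was used, with a common factor of 2248. Values below a floor of 7.24 (2.86 on the log2 scale) were set to it before log2 was taken. Tests covered the 322 miRNAs that some age detected on each of its arrays, with limma 3.58.1 in R 4.3.3, in 1 fit over 24 arrays with age as the group, moderated and two-sided, with Benjamini-Hochberg adjustment within each comparison and calls at an adjusted p under 0.05. In a test on simulated data for day 42 over day 1 (322 miRNAs), changes of 1 on the log2 scale were called in 96% of cases, changes of 0.5 in 36% and no change in 1.35%. The simulated noise was independent between miRNAs, and 50 miRNAs were changed by each size. The shares need not hold for real arrays or for comparisons in which few miRNAs change. Arrays carry no read depth, and their number limits the precision. Each array detected 266 to 348 miRNAs, correlations within an age ran from 0.899 to 0.998, and 0 pairs of arrays were identical. Other miRNAs were named by rule (the 5 highest and 3 lowest r, and on each list the 2 largest called rises and falls), those called at day 4 over day 1 or day 7 over day 4 were named after their values were seen, and members and lists were chosen with earlier results of these data known. The normexp alternative used the median spot signal with the background median and an offset of 50, since the mean signal is not a column of these files. Alternatives were other scalings, background correction, single probes, a floor of 1, wider testing, array brightness, slide or replicate as terms, an intensity trend, the arrays of the compared ages alone and leaving out each array. The alternatives for the other named miRNAs and the lists, and those without the 5 dimmest arrays or day 1 replicate 2, were chosen after seeing the data. The 5 dimmest arrays were day 1 replicates 1, 4 and 5 and day 4 replicates 1 and 3. Without them day 1 kept only replicates 2 and 3, and replicate 2 is the lung with the highest miR-210 and muscle miRNA levels of day 1. In that fit brightness and the choice of day 1 lungs cannot be told apart.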

Additional observations from a re-analysis of the deposited data

Results flagged for a closer look

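Among the values by probe, 1 array was set off from its group. For probe A_54_P1444 day 7 replicate 5 stood highest among the 5 day 7 lungs, at 6.57 on the log2 scale, and the next was at 6.39. That gap was 0.811 of the group's whole range, above Dixon's critical value of 0.710 for 5 values. It is also the array on which days 4 and 7 met for this probe. Chance sets off about 1 in 20 groups in this way. The summed level of miR-210 on that array, 8.13, was also the highest of day 7 but did not pass that limit.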

How the results depend on the processing

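The fall of miR-210 between day 1 and days 7, 14 and 42, and the F-test over age (span 1.38), kept direction and call under the alternatives except these. With no scaling nothing was called: span 0.38 (adjusted p = 0.732), and -0.17, -0.20, -0.26 and -0.38 for days 4, 7, 14 and 42 over day 1 (adjusted p of 0.670, 0.537, 0.370 and 0.226). Normexp background correction lost the calls of day 4 (-0.71, adjusted p = 0.216) and day 7 over day 1 (-1.05, adjusted p = 0.0728). In that setting day 1 replicate 3 read 10.38, where the other day 1 lungs read 9.47 to 9.57. Likewise day 14 replicate 3 read 10.22, where the other day 14 lungs read 8.01 to 8.49. A normexp fit without these arrays was not run. Day 4 over day 1 also lost its call with only the arrays of both ages (-0.54, adjusted p = 0.123).

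Day 14 over day 7 lost its call when the percentile was taken over all names (-0.060), after median scaling (-0.26) or quantile normalization (-0.13), without scaling (-0.053) and in the deposited table (-0.16), with adjusted p of 0.629, 0.0518, 0.385, 0.882 and 0.296, and was 0.049 (adjusted p = 0.930) with normexp. Day 42 over day 14, not called, turned positive with the percentile of all names (0.24), median scaling (0.20), quantile normalization (0.26), the deposited table (0.27), and without day 14 replicate 5 (0.031) or day 42 replicate 2 (0.010) or replicate 3 (0.031). The cause was not tested. Day 42 over day 7 turned to 0.18, 0.13 and 0.11 as given above, and miR-155 and miR-31 over day 1 to -0.50 and -0.12 with normexp. Likewise miR-362-5p turned to 0.095 (quantile), 0.26 (no scaling) and 0.44 (deposited table), and miR-532-5p to 0.066, 0.37 and 0.062 there and 0.025 with the percentile of all names.

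Within slides the values that moved by more than the spread were -0.26 (slide 1) and -0.88 (slide 2) for day 4 over day 1, -1.16 (slide 2) for day 7, -1.60 (slide 2) and -1.15 (slide 3) for day 14 and -1.63 (slide 2) for day 42 over day 1, -0.62 (slide 1) for day 7 over day 4, -0.24 (slide 3) for day 14 over day 7, -1.16 (slide 1) and -0.63 (slide 3) for day 14 over day 4, and -1.20 (slide 1) for day 42 over day 4. Leaving out each array gave a span of 1.31 to 1.48, -0.60 to -0.47 for day 4, -0.98 to -0.85 for day 7, -1.41 to -1.28 for day 14 and -1.48 to -1.31 for day 42 over day 1. It gave -0.44 to -0.33 for day 7 over day 4, -0.49 to -0.36 for day 14 over day 7 and -0.13 to 0.031 for day 42 over day 14. Day 42 over day 1 was -1.45 without the 5 dimmest arrays named above and -1.24 with brightness as a term (adjusted p of 4.40e-07 and 2.25e-07).

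Counts of called miRNAs moved by over 1.5 times as follows: for the F-test 211, or 93 with normexp. They were 5 for day 4 over day 1, with 0 (only both ages' arrays) to 28 (brightness) as the range, 51 for day 7 over day 1 (6 with normexp to 132 without scaling) and 173 for day 14 over day 1 (52 with normexp). For day 7 over day 4 there was 1, or 0 under 7 alternatives. Day 14 over day 7 had 101 (9 with normexp to 168 with only both ages' arrays) and day 42 over day 14 had 105 (22 with normexp, 65 without scaling). With normexp there were 11 for day 14 over day 4, 70 for day 42 over day 4 and 67 for day 42 over day 7, against 127, 192 and 186.

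Replicate numbers are shared between ages, but the 46 pairs with the same number did not deviate together (r from -0.86 to 0.84, median -0.02, 18 over 0.1), and 2 of 24 arrays correlated best with their own number. With the replicate block day 42 over day 1 was -1.37 (adjusted p = 5.23e-08) and day 4 over day 1 -0.54 (adjusted p = 0.0407), and no call of miR-210 changed.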
